A study of Homo sapiens with 6 samples.

Results

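The hexosamine pathway turns fructose-6-phosphate and glutamine into UDP-N-acetylglucosamine (UDP-GlcNAc), and its transcripts were followed here in AsPC-1, an established cell line from a human pancreatic adenocarcinoma. The 10 genes were chosen by name, with earlier results of these data known. They are the enzymes of each step of the pathway, with NAGK from its salvage route and AMDHD2 from its return route. With them stand the enzymes of the cycle that puts N-acetylglucosamine on nuclear and cytosolic proteins and takes it off. All 10 were found among the 26228 rows of the deposited table, and 9 of them reached 1 FPKM in at least 3 libraries and were tested with 11471 genes in all. FPKM counts fragments relative to transcript length and to mapped fragments in the library. Levels of different genes are set side by side on that basis. It does not remove effects of base composition or overlapping exons on single genes, so small differences between genes are uncertain.

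The study held 6 libraries of poly(A) RNA from this line. Cells in 3 libraries received vehicle and cells in the other 3 received 6-diazo-5-oxo-L-norleucine (DON), in both cases for 24 h in medium without serum. The labels give no dose of DON and do not say whether replicates were separate cultures, and each p-value therefore reflects only the spread among these libraries, which may be technical. DON is a glutamine analog that binds the active site cysteine of enzymes that take the amide nitrogen of glutamine, and the comparison asks which transcripts change when those reactions are blocked. A single line stands behind every value.

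In the pathway, GFPT1 or GFPT2 makes glucosamine-6-phosphate from fructose-6-phosphate and glutamine, which is the rate-limiting step, inhibited by the end product and a direct target of DON. GNPNAT1 adds an acetyl group from acetyl-CoA, PGM3 moves the phosphate from carbon 6 to carbon 1, and UAP1 joins the sugar to UTP. OGT uses the finished UDP-GlcNAc to modify serine and threonine residues of proteins, and MGEA5, now named OGA, removes the sugar again. Several genes of this route are known targets of the stress transcription factors XBP1 and ATF4, and transcripts of OGT and MGEA5 are known to respond to the cell's O-GlcNAc level.

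The stretches before the start sites of GFPT1 and PGM3, the pair with the largest rises, are shown first, since both hold the letters CCACGTC, part of the sequence to which XBP1 is known to bind. They are the 250 bases before each RefSeq start in GRCh38.p14, written 5′ to 3′ on the gene's own strand, with that match in capitals. The first lies at chr2:69387228-69387477 on the minus strand, and the second at chr6:83193266-83193515 on the minus strand.
GFPT1: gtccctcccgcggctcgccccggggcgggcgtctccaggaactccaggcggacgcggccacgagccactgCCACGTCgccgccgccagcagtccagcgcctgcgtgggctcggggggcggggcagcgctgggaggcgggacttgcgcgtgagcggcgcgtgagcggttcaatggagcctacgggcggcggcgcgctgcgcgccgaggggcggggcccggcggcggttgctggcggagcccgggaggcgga
PGM3: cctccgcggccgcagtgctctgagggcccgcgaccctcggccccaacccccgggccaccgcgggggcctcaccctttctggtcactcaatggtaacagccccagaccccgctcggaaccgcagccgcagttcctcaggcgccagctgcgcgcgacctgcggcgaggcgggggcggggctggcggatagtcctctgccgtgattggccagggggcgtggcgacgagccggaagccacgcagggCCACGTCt

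The match began 180 bases before the start of GFPT1 and 8 bases before 1 of the starts of PGM3, whose other start had no match in its window. Promoter entries were matched for 9 of the 10 genes, all but UAP1L1, and 3 genes (PGM3, UAP1 and NAGK) had more than 1 start. In windows of 300 bases (250 before to 50 after the start), 4 of the 9 held CCACGTC on either strand, the other two being GNPNAT1, 28 bases past its start, and UAP1, 2 bases past 1 of its starts. Counted by window, 4 of the 13 windows of these genes held it, and 3.13% of all 35116 RefSeq promoter windows. The 7 letters were picked after these promoters had been read, so that difference is a description of the choice, and the 3 longer elements chosen earlier (TGACGTGG, TTGCATCA and the ER stress element, each on both strands) had no match in any of the 9. Those 3 were in 0.729%, 0.866% and 0.0769% of all windows, and TGACGTGG read on the other strand contains the 7 letters of the shorter match. These letters describe the windows and no binding was measured.

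With DON, 6 of the 9 tested enzymes rose, 1 fell and 2 did not pass the test, at an adjusted p under 0.05 in limma over all tested genes. DON changed much of the transcriptome, and 38.9% of all tested genes were called, 18.3% higher and 20.6% lower. Without DON 2 this share was 23.7%, and GNPNAT1 and NAGK lost their calls. Leaving out any 1 library left 5 to 6 of the enzymes called, 4 to 5 of them higher. Vehicle and DON libraries did not overlap for 7 of the 9 enzymes, 6 of them higher in DON, against 51.5% of all tested genes with no overlap, 24.9% higher and 26.5% lower. The median log2 fold change was 0.37 over the 9 enzymes and -0.01 over all tested genes. GFPT1 and PGM3 stood apart in size: they were 68th and 69th of the 11471 tested genes by rise, and called rises of at least 2-fold on the log2(FPKM + 1) scale made up 2.83% of tested genes. MGEA5 was 187th by fall, among the 4.16% called with a fall of at least 2-fold. The calls of GFPT1, PGM3, UAP1, OGT and MGEA5 held in each of 15 alternative analyses, whereas those of GNPNAT1 and NAGK did not. A split of the libraries that the labels do not give, drawn from these same data, sets vehicle 1, vehicle 2 and DON 1 against the rest. In these sets the log2 difference between DON and vehicle was 1.76 and 1.86 for GFPT1, 1.67 and 1.80 for PGM3, 0.68 and 0.60 for OGT and -1.40 and -1.34 for MGEA5. It was 0.48 and 0.42 for UAP1, 0.32 and 0.24 for GNPNAT1, 0.46 and 0.32 for NAGK, 0.33 and 0.03 for UAP1L1 and 0.21 and 0.29 for AMDHD2. Each set has 1 group of a single library, so these values carry no test.

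**Figure D1:**
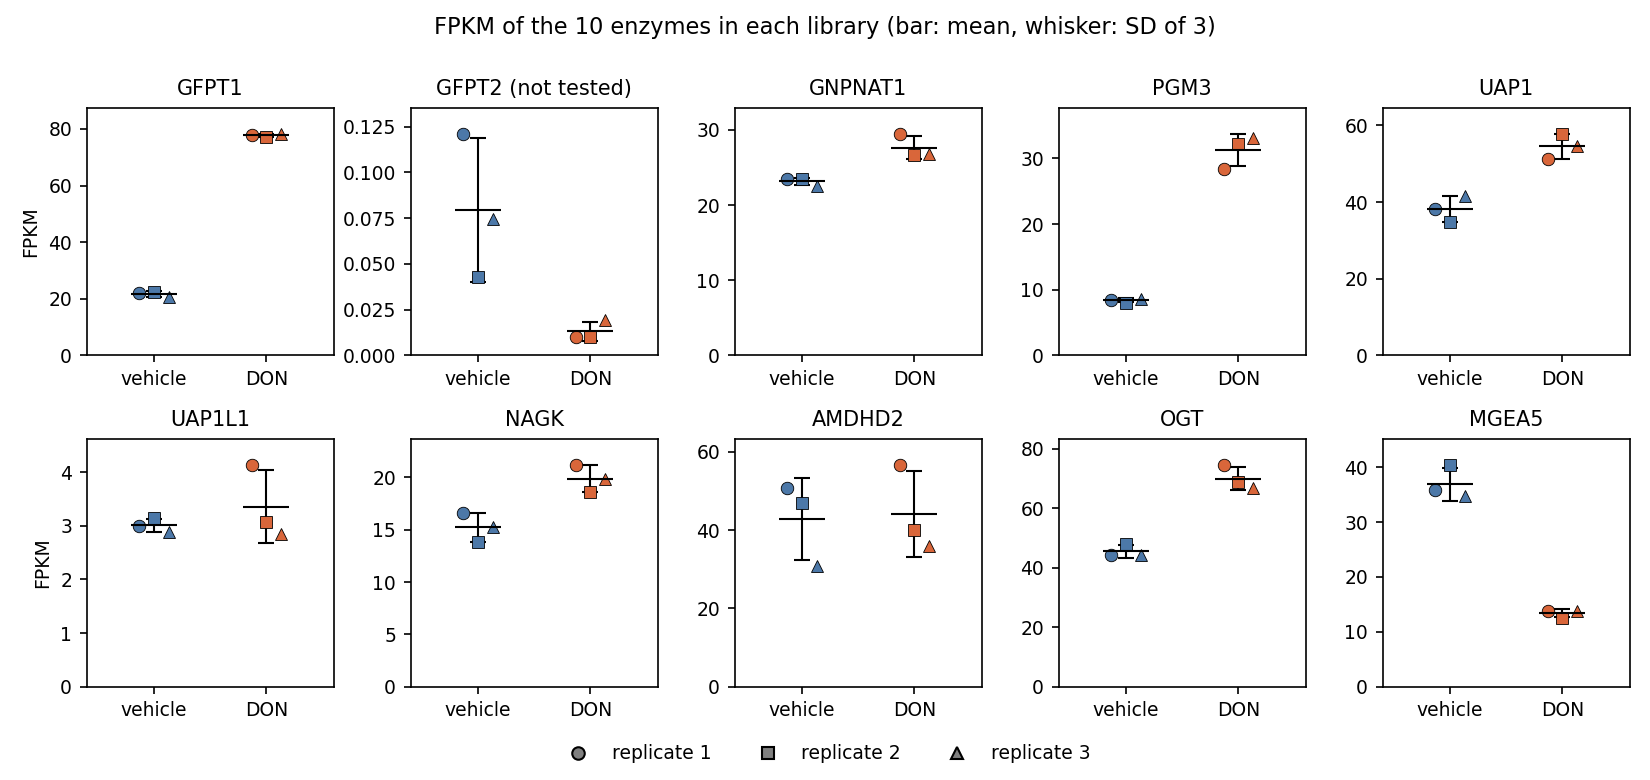
FPKM of each enzyme in the 6 libraries, with 1 symbol per replicate number, a bar at the group mean and whiskers of 1 SD (n = 3). Vehicle and DON libraries did not overlap for GFPT1, GNPNAT1, PGM3, UAP1, NAGK, OGT and MGEA5, and they overlapped for UAP1L1 and AMDHD2; the axis of GFPT2 ends below 0.14 FPKM.

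GFPT1, the entry enzyme, had the largest log2 fold change of the 9. Vehicle libraries 1 to 3 had 21.99, 22.5 and 20.7 FPKM, and DON libraries 1 to 3 had 77.8, 77.3 and 78.2 FPKM. Every DON library was more than 3 times above every vehicle library, and the DON libraries differed from each other by a coefficient of variation of 0.559%, against 4.32% in vehicle. The ratio of the means was 3.58 (log2 fold change 1.79 ± 0.07 SE, 95% interval 1.62 to 1.97, limma adjusted p = 2.67e-05). The transcript of the enzyme that DON inactivates was higher in every treated library, though in bulk RNA more transcript per cell and more cells with it cannot be told apart.

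GFPT2, the second gene for this step, was close to the floor of 0.01 FPKM that the table uses as its lowest value. Vehicle libraries had 0.121, 0.0428 and 0.0747 FPKM and DON libraries 0.01, 0.01 and 0.0193 FPKM, and the gene was not tested. Adjusted for relative library depth, these values were 5.0, 3.0, 4.0, 0, 0 and 1.0 times the lowest value above the floor, as a few single reads would give. So few reads carry no comparison, and nearly all transcript for this step came from GFPT1 in both groups.

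GNPNAT1, the acetyltransferase that follows, had 23.4, 23.4 and 22.6 FPKM in vehicle and 29.4, 26.7 and 26.8 FPKM in DON. The groups did not overlap, but the change was the smallest of the called ones, a ratio of 1.19 (log2 fold change 0.25 ± 0.08 SE, limma adjusted p = 0.0474). Leaving out any 1 of the 6 libraries ended the call, with limma adjusted p between 0.0923 and 0.117. An antisense gene of the other strand covers 36.9% of this gene's exon bases in GENCODE 29, and whether reads were assigned by strand is not given.

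PGM3, the mutase, rose nearly as much as GFPT1. It went from 8.44, 8.04 and 8.66 FPKM in vehicle to 28.4, 32.1 and 33.1 FPKM in DON, so the groups lay far apart (ratio 3.73, log2 fold change 1.78 ± 0.09 SE, 95% interval 1.56 to 1.99, limma adjusted p = 4.41e-05). By ratio of means PGM3 exceeded GFPT1, while on the log2(FPKM + 1) scale, which damps lower genes, it came just below. The neighbouring gene DOP1A, listed as DOPEY1, lies on the opposite strand and shares 13.5% of the exon bases of PGM3. Its mean was 1.69 ± 0.204 FPKM with vehicle and 1.36 ± 0.0714 FPKM with DON (SD, n = 3; limma adjusted p = 0.243), and its part in the values of PGM3 was not tested.

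UAP1, which makes UDP-GlcNAc from UTP and the sugar phosphate, had 38.3, 34.9 and 41.7 FPKM in vehicle and 51.3, 57.7 and 54.6 FPKM in DON. All DON libraries were above all vehicle libraries, at a ratio of 1.42 (log2 fold change 0.50 ± 0.10 SE, limma adjusted p = 0.00671). Its paralog UAP1L1 was lower throughout, at 3.01, 3.14 and 2.89 FPKM in vehicle and 4.13, 3.08 and 2.86 FPKM in DON. Of the DON libraries only the first was above the vehicle range, and no change was called (log2 fold change 0.11, 95% interval -0.21 to 0.42, limma adjusted p = 0.552). The interval reaches close to the rise of UAP1, and without DON 1 the sign of UAP1L1 turned (-0.016).

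**Figure D2:**
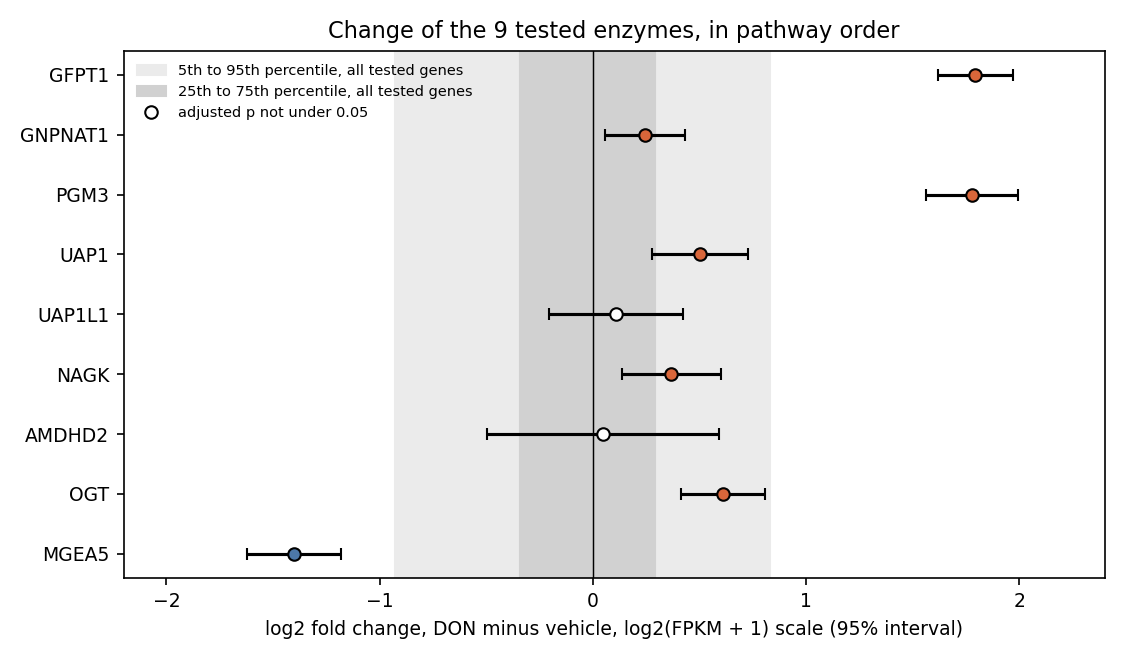
Log2 fold change of the 9 tested enzymes with its 95% interval, in pathway order, over bands for the middle 50% and 90% of all tested genes. GFPT1 at 1.79, PGM3 at 1.78 and MGEA5 at -1.40 lie outside the wider band, which runs from -0.93 to 0.83, and open points mark UAP1L1 and AMDHD2, which were not called.

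NAGK phosphorylates N-acetylglucosamine recovered from broken-down glycans and so feeds the pathway without glutamine. It had 16.6, 13.8 and 15.2 FPKM in vehicle and 21.2, 18.6 and 19.9 FPKM in DON. The groups did not overlap (ratio 1.31, log2 fold change 0.37 ± 0.10 SE, limma adjusted p = 0.0243). This call was lost without vehicle 2 (limma adjusted p = 0.0831), DON 1 (0.0526), DON 2 (0.0572) or DON 3 (0.0714).

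AMDHD2 runs the acetylation step backward, since it removes the acetyl group from N-acetylglucosamine-6-phosphate. Its values were 50.7, 46.8 and 30.8 FPKM in vehicle and 56.5, 39.9 and 35.9 FPKM in DON. Vehicle 3 was low and DON 1 was high, the groups overlapped widely, and no change was called (log2 fold change 0.05, 95% interval -0.50 to 0.59, limma adjusted p = 0.889). The gene is rich in G and C, with more of these bases (64.4%) than 95.6% of tested genes. A correction for base composition within each group, chosen after seeing the data, narrowed the interval to -0.26 to 0.36 without a call. It was fitted to deviations from the group means and the limma fit did not allow for it, so this interval may be too narrow. The split of the libraries into vehicle 1, vehicle 2 and DON 1 against the rest was drawn from these same data. A fit with a term for this split is therefore no independent test. In it, AMDHD2 was called higher (log2 fold change 0.25, limma adjusted p = 0.0215). Without vehicle 3 its sign turned (-0.17), as it did without DON 1 (-0.14), and its exons share 42.3% of their bases with CEMP1 on the other strand, a gene that was at or under 1.016 FPKM in every library. A second annotated gene, on the same strand, shares 11.5% of the exon bases of AMDHD2.

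Both enzymes of the O-GlcNAc cycle changed, in opposite directions. OGT, the only enzyme that adds the sugar to nuclear and cytosolic proteins, had 44.2, 48.0 and 44.3 FPKM in vehicle and 74.4, 68.8 and 66.8 FPKM in DON. It was higher in all 3 DON libraries than in any vehicle library (ratio 1.54, log2 fold change 0.61 ± 0.08 SE, limma adjusted p = 0.00171). MGEA5, the only enzyme that takes it off, fell. It had 35.8, 40.4 and 34.7 FPKM with vehicle and 13.8, 12.5 and 13.8 FPKM with DON. Its vehicle mean was 2.77 times its DON mean, and the groups lay far apart (log2 fold change -1.40 ± 0.09 SE, 95% interval -1.62 to -1.18, limma adjusted p = 0.000113).

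Set against each other within a library, OGT was 1.23, 1.19 and 1.28 times MGEA5 in vehicle by FPKM. In DON it was 5.41, 5.50 and 4.84 times MGEA5. On the log2(FPKM + 1) scale the ratio was 0.30 ± 0.05 in vehicle and 2.31 ± 0.10 in DON (SD, n = 3), a difference of 2.01. The exact two-sided permutation test gave p = 0.1, the smallest that 3 against 3 libraries allow, and 0.133 after adjustment over the 4 ratios compared. The table gives 1 value per gene, so transcripts of OGT or MGEA5 that keep introns and those that encode protein cannot be told apart.

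**Figure D3:**
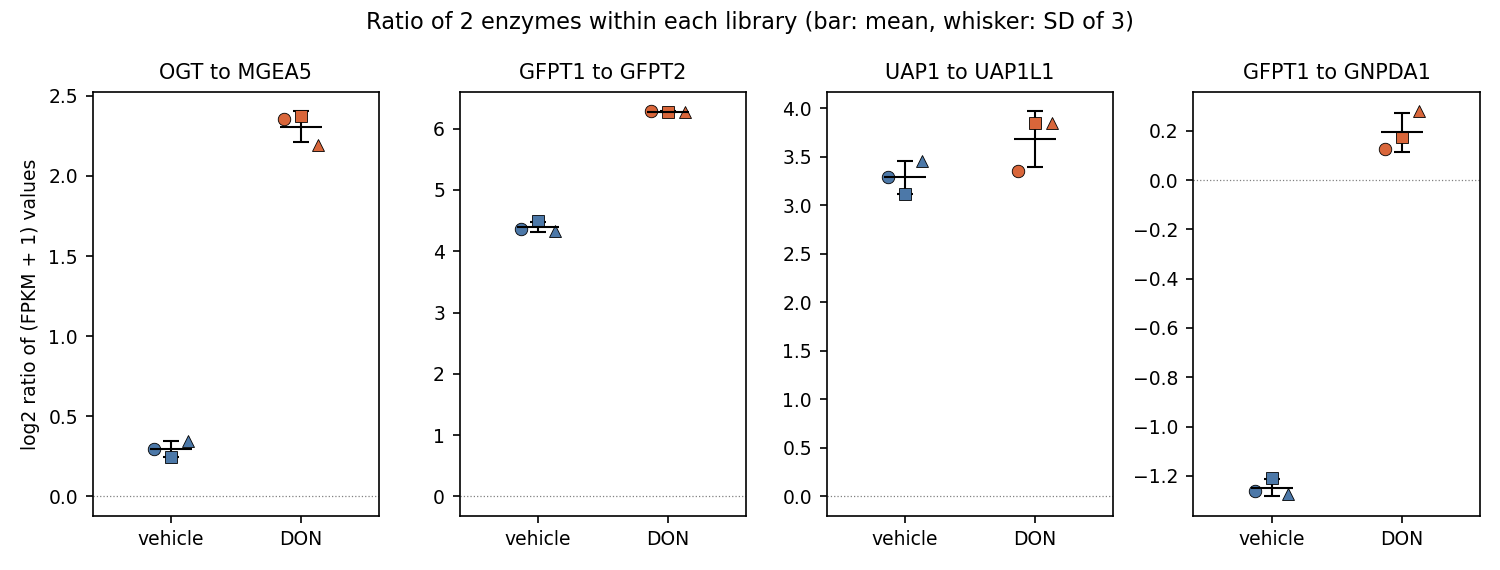
Log2 ratio of 4 pairs of enzymes within each library, with 1 symbol per replicate number, a bar at the mean and whiskers of 1 SD (n = 3). OGT to MGEA5 went from 0.30 to 2.31 and GFPT1 to GNPDA1 from -1.25 to 0.19, with no overlap between the groups, while UAP1 to UAP1L1 overlapped; the GFPT1 to GFPT2 ratio follows GFPT1 because GFPT2 is near the floor.

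Other ratios were compared in the same way. GNPDA1 runs the entry step in reverse, from glucosamine-6-phosphate to fructose-6-phosphate. GFPT1 was below GNPDA1 in each vehicle library, at 0.406, 0.422 and 0.402 times its FPKM, and above it in each DON library, at 1.09, 1.13 and 1.22 times. The difference on the log2 scale was 1.44 (exact permutation p = 0.1, adjusted 0.133). UAP1 to UAP1L1 differed by 0.39 with overlapping groups (exact permutation p = 0.2, adjusted 0.2). GFPT1 to GFPT2 differed by 1.88 (exact permutation p = 0.1, adjusted 0.133), a size that rests on the pseudocount, at 2.48 with 0.1 and 4.389 with none.

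The mean levels along the pathway stood in another order with DON. In vehicle, PGM3 was the lowest of the 4 main forward enzymes at a mean of 8.38 FPKM, followed by GFPT1 at 21.7, GNPNAT1 at 23.2 and UAP1 at 38.3 FPKM, with no overlap between neighbours among them, although the ranges of GFPT1 and GNPNAT1 nearly met. In DON, GNPNAT1 was lowest at 27.6 FPKM, its range overlapped that of PGM3 at 31.2 FPKM, and in DON 1 PGM3 was still below it. UAP1 followed at 54.5 FPKM and GFPT1 was highest of all 10 genes at 77.7 FPKM, above OGT at 70.0 FPKM without overlap. Among the others in vehicle, MGEA5, UAP1, AMDHD2 and OGT formed a top group, from 36.9 to 45.5 FPKM, whose neighbours overlapped. In DON, MGEA5 at 13.3 FPKM had dropped below NAGK at 19.9 FPKM, and of the 10 genes only GFPT2 and UAP1L1 were lower.

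**Figure D4:**
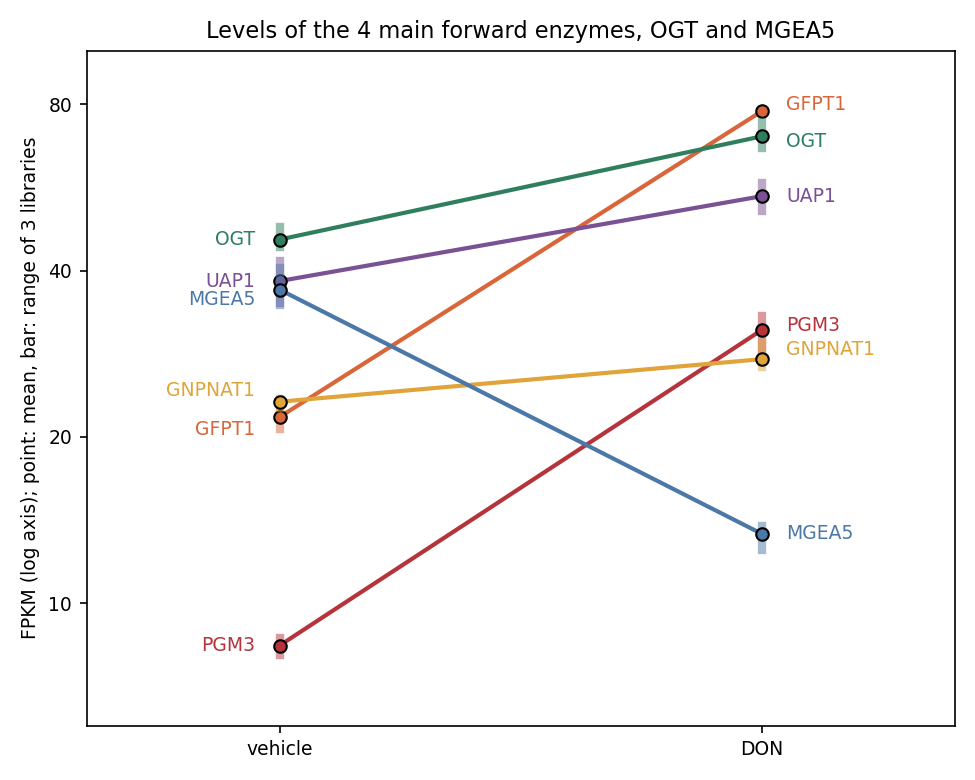
Mean FPKM in vehicle and DON on a log axis for the 4 main forward enzymes, OGT and MGEA5, with thick bars for the range of 3 libraries. PGM3 rises from 8.38 to 31.2 FPKM, where its range overlaps that of GNPNAT1. GFPT1 rises from 21.7 to 77.7 FPKM, from below GNPNAT1, MGEA5, UAP1 and OGT to above all of them, while MGEA5 falls from 36.9 to 13.3 FPKM.

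Genes around the pathway were read from 10 further lists, which hold 119 entries, all found in the table. Their counts are to be read beside the 38.9% of all tested genes that were called. Of 7 tested genes of return and salvage steps, 3 were higher, 2 lower and 2 not called, and without DON 2 only 2 were called. GNPDA1 rose from 53.0 ± 1.36 to 67.9 ± 3.51 FPKM (SD, n = 3) and its paralog GNPDA2 from 4.08 ± 0.418 to 7.02 ± 0.853 FPKM, the call of GNPDA1 being lost without DON 2 (limma adjusted p = 0.0607). GALK2, a kinase that accepts N-acetylgalactosamine, rose 1.65-fold. The sialic acid branch, which starts from UDP-GlcNAc, had 1 of 7 higher and 1 lower. Its first enzyme GNE fell from 251.1 ± 15.6 to 179 ± 15.6 FPKM and its synthase NANS rose from 42.97 ± 3.08 to 84.5 ± 2.20 FPKM.

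Genes that supply the pathway's substrates were read next. For fructose-6-phosphate and glutamine, 3 of 9 were higher and 3 lower. The higher ones were the glutamine carriers SLC38A1 (1.98-fold), SLC1A5 (1.46-fold) and SLC38A2 (1.44-fold), and the lower ones were the glucose carrier SLC2A1, the isomerase GPI and FBP1. FBP1, which makes fructose-6-phosphate from fructose bisphosphate, fell from 102 ± 1.75 to 39.7 ± 4.25 FPKM. The list for acetyl-CoA and UTP also holds the CTP synthases CTPS1 and CTPS2, which use UTP. Of its 11 genes none was higher and 6 were lower, CTPS1 among them. ACSS2 and ACLY make cytosolic acetyl-CoA. The vehicle mean of ACSS2, 99.4 ± 5.31 FPKM, was 3.97 times its DON mean, and ACLY fell from 61.8 ± 5.03 to 20.6 ± 0.817 FPKM. NME1, a nucleoside diphosphate kinase, went from 125 ± 9.28 to 82.3 ± 9.99 FPKM and the CTP synthase CTPS1, which uses UTP and glutamine, from 16.2 ± 3.49 to 8.17 ± 0.541 FPKM, and UMPS and CMPK1 of pyrimidine nucleotide synthesis were the other two called lower.

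Among 30 tested first users of UDP-GlcNAc and UDP-GalNAc, 5 were higher, 7 lower and 18 not called (median log2 fold change 0.05), a share called close to that of all tested genes. Without DON 2, 6 of them were called. HAS3, a hyaluronan synthase that spends UDP-GlcNAc at the cell surface, had 9.02, 6.19 and 5.26 FPKM with vehicle and 31.8, 35.0 and 43.6 FPKM with DON, a rise of 5.40-fold (limma adjusted p = 0.000267). PIGA, the catalytic subunit of the first step of GPI anchor synthesis, rose from 3.36 ± 0.446 to 8.08 ± 0.551 FPKM and PIGH of the same complex was also called higher, whereas PIGQ of that complex fell from 20.0 ± 0.499 to 9.21 ± 1.08 FPKM. MGAT2 and B3GNT3 were the remaining higher ones. B3GNT2, which extends poly-N-acetyllactosamine chains, fell from 19.9 ± 2.95 to 10.5 ± 1.21 FPKM. MGAT5, a branching enzyme of N-glycans, fell from 21.7 ± 1.98 to 11.7 ± 0.625 FPKM (limma adjusted p = 0.000864), and ALG14, MGAT4A, MGAT4B and EXTL3 were the remaining lower ones.

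Partners of OGT in the nucleus and cytosol had 2 of 13 higher, 3 lower and 8 not called, again a share close to that of all tested genes. Without vehicle 2, DON 2 or DON 3, in turn, 3 were called, and HDAC1 lost its call (limma adjusted p = 0.0534, 0.0609 and 0.0509). HCFC1, a chromatin regulator that OGT modifies and cleaves, fell from 11.3 ± 1.17 to 4.27 ± 0.623 FPKM (limma adjusted p = 0.000539). TRAK2, a mitochondrial transport adaptor, rose from 13.8 ± 0.872 to 23.6 ± 2.15 FPKM, while ASXL1 and HDAC1 went to 0.699 and 0.753 times their vehicle levels. PPP1CC, a phosphatase subunit, was the other called higher. Of 10 splicing kinases and SR proteins, 1 was higher and 4 lower. The SR proteins SRSF2 and SRSF7 fell from 180 ± 7.98 to 60.2 ± 3.51 FPKM and from 79.1 ± 3.78 to 29.2 ± 1.87 FPKM, and SON was also lower. The kinase CLK2 fell from 13.3 ± 0.795 to 9.05 ± 0.823 FPKM and CLK1 rose from 41.2 ± 3.57 to 57.9 ± 2.30 FPKM.

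The rise of GFPT1 can be read beside the other amidotransferases, which also take the amide nitrogen of glutamine. Of 8 tested, ASNS was the only one called higher, and CTPS1, PFAS and NADSYN1 were called lower. CAD, CTPS1 and CTPS2 were counted in the acetyl-CoA and UTP list as well. ASNS had 40.05, 33.5 and 35.7 FPKM in vehicle and 273, 323 and 333 FPKM in DON. PFAS of purine synthesis went from 9.15 ± 2.39 to 4.61 ± 1.27 FPKM and NADSYN1 of NAD synthesis from 27.5 ± 4.88 to 16.6 ± 3.05 FPKM. Without vehicle 1, vehicle 2, DON 2 or DON 3, in turn, 2 of the 8 were called instead of 4, PFAS and NADSYN1 having lost their calls.

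Of 10 stress transcription factors and sensors, 7 were higher, HIF1A was lower and 2 were not called (median log2 fold change 0.90). XBP1 had 74.1, 75.2 and 63.4 FPKM in vehicle and 160, 143 and 125 FPKM in DON, and ATF4 had 191, 202 and 179 FPKM in vehicle and 420, 383 and 342 FPKM in DON. ERN1, the kinase and nuclease that splices XBP1 mRNA, rose 3.76-fold to 5.36 ± 0.766 FPKM, and the sensor kinase EIF2AK3 rose 2.27-fold. DDIT3, a stress transcription factor downstream of ATF4, rose 6.11-fold to 209 ± 26.5 FPKM. Spliced and unspliced XBP1 are not separated by the table. Among 7 regulators of GFPT enzymes, 1 was higher and 2 lower, a share called close to the 38.9% of all tested genes. The mTOR complex subunit RICTOR rose 1.87-fold, and the ubiquitin ligase STUB1 and the kinase subunit PRKACB were at 0.590 and 0.689 times their vehicle levels. Without DON 2, 1 of the 7 was called: STUB1 (limma adjusted p = 0.0524) and PRKACB (0.0565) lost their calls. PRKACB also lost its call without vehicle 1, vehicle 2 or vehicle 3 (limma adjusted p = 0.0514, 0.0627 and 0.0639).

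**Figure D5:**
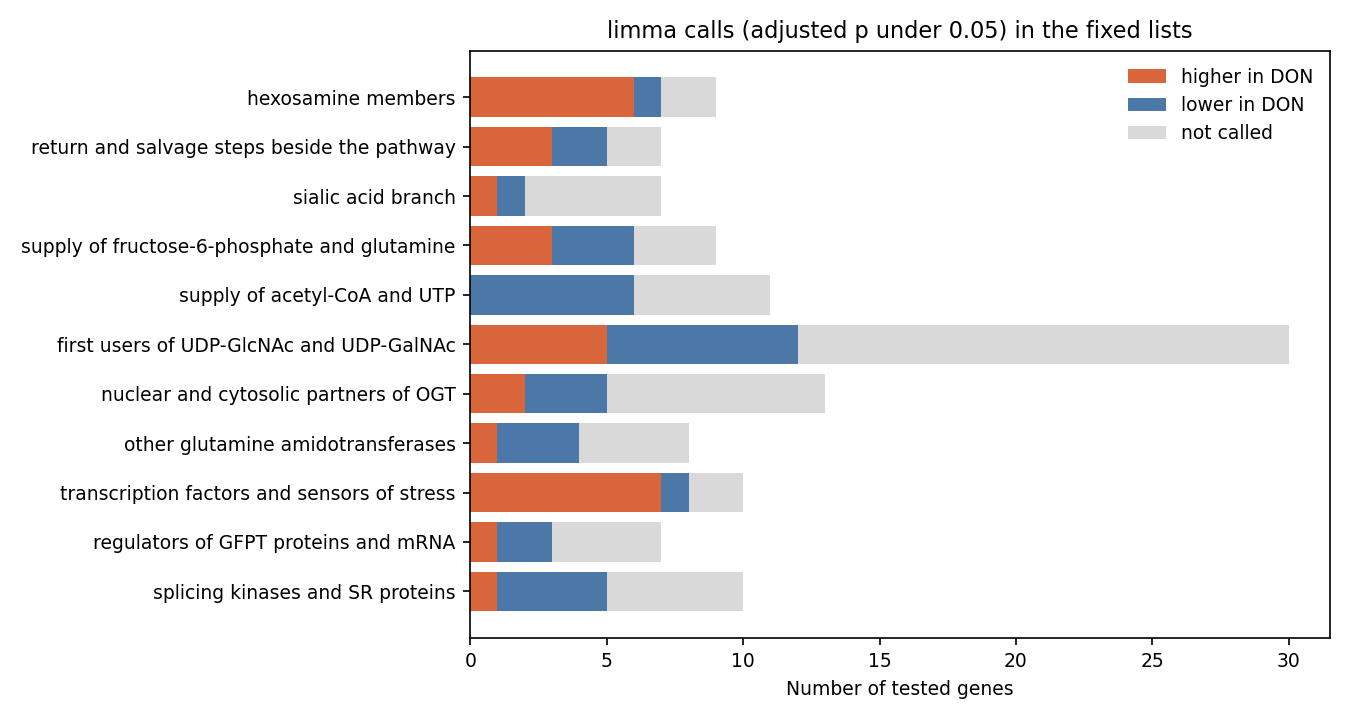
Number of tested genes called higher, called lower or not called in each list, by limma at an adjusted p under 0.05. The 9 enzymes have 6 higher and 1 lower. The acetyl-CoA and UTP list, which also holds the UTP users CTPS1 and CTPS2, has no gene higher and 6 lower. Of the 30 first users of UDP-GlcNAc and UDP-GalNAc 5 are higher and 7 lower, a share called close to the 38.9% of all tested genes.

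Where only tested genes averaging 5 FPKM or more were searched, the genes whose profiles were nearest to that of GFPT1 were IFRD1, CALR and FAM129A, at Euclidean distances of 0.112, 0.16 and 0.174 between centred log2(FPKM + 1) values. CALR, a calcium-binding chaperone of the endoplasmic reticulum, had 166, 183 and 178 FPKM in vehicle and 578, 580.1 and 580.2 FPKM in DON. IFRD1 rose 3.49-fold to 54.9 ± 1.72 FPKM and FAM129A 4.64-fold to 10.8 ± 0.579 FPKM. Nearest to MGEA5 were SNN, SOWAHA and KIF14, at distances of 0.101, 0.133 and 0.184. KIF14, a mitotic kinesin, fell from 11.7 ± 0.0285 to 3.71 ± 0.176 FPKM, and SNN and SOWAHA had vehicle means 3.36 and 3.20 times those in DON. With 6 libraries in 2 groups these distances reflect mostly the change between the groups.

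Facts of the whole table bear on these values as follows. FPKM sums were between 525200 and 556950 per library, and log2 values correlated across genes at 0.983 to 0.992 within groups and 0.970 to 0.978 between them (Pearson). Relative depth, from the commonest ratio between low values of each library and vehicle 1, was 1.25 to 1.70 times that of vehicle 1. By this estimate vehicle 1 was the shallowest library. Only 46 to 71 genes shared the commonest ratio, of 671 to 768 compared. Of 8 epithelial markers, 5 reached 1 FPKM with a summed level of 3503 to 4535 FPKM in vehicle and 3013 to 4191 FPKM in DON, and KRT8 and KRT18 carried failure marks. Of 17 fibroblast, immune and endothelial markers, only LUM and CD68 reached 1 FPKM, and CD3E and CSF1R were at the floor in all 6 libraries. The fibroblast markers summed to 141 to 172 FPKM in vehicle and 88.8 to 124 FPKM in DON, the immune markers to 17.5 to 28.8 and 26.6 to 40.6 FPKM, and the endothelial ones to 0.297 to 0.776 and 0.0794 to 0.202 FPKM. The 7 housekeeping genes summed to 6443 to 6776 FPKM in vehicle and 5273 to 5569 FPKM in DON, with ACTB (log2 fold change -0.70, limma adjusted p = 0.00347) and PPIA (-0.38, 0.0245) called lower. The part of these markers in the results was not tested.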

How the data were processed

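The authors deposited FPKM values for 6 libraries, with genes in rows named by symbol, per the file headers, and with 72 failure marks in 41 rows in place of values. The submitters' processing notes name STAR and the hg19 build. How FPKM was computed, with which annotation and with what use of strand, is not given in the sources used here. Columns named control were taken as the vehicle libraries. Values became log2(FPKM + 1), and genes with at least 1 FPKM in 3 of 6 libraries and no failure mark were compared in limma 3.58.1 (R 4.3.3) with an intensity trend, two-sided, with Benjamini-Hochberg adjustment over all tested genes at 0.05. The fit was tested on simulated data. Ratios between enzymes used exact permutation tests in scipy 1.17.1. Python 3.11.15 with pandas 2.3.3, numpy 2.4.6 and matplotlib 3.10.9 served for tables and plots. Fold values beside FPKM are ratios of group means. The genes, lists and tests were chosen with earlier results of these data known. Named genes are the 10 enzymes, up to 4 called genes of each list by size, GNPDA1, GNPDA2, XBP1, ATF4 and ASNS and the 3 nearest profiles to GFPT1 and MGEA5 among tested genes averaging 5 FPKM or more; DOP1A, CEMP1 and called genes named only to complete a small count were added after values were seen. Some genes within these rules are counted in their lists and not reported by name here. Alternatives changed the pseudocount, filter, scaling, variance trend, block, split term and base composition correction (the last chosen after seeing the data), or left out 1 library. The split of libraries came from an earlier principal component analysis of these data. Absolute depth is unknown, so no counting interval is given. Relative depth is the commonest ratio, within 0.5%, between values up to 0.3 FPKM.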

Additional observations from a re-analysis of the deposited data

How the results depend on the processing

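GFPT1, PGM3, UAP1, OGT and MGEA5 kept direction and call in all 15 alternatives, with log2 fold changes of 1.76 to 1.84, 1.74 to 1.88, 0.44 to 0.56, 0.565 to 0.648 and -1.46 to -1.34. The changes of filter, variance trend, replicate block and base composition correction leave a log2 fold change the same by construction. In those alternatives only the p-value could move, so the kept direction is no test. GFPT2 was tested in no alternative that kept the filter, and UAP1L1 has no value with the filter at 5 FPKM. Without a filter, 2942 of 26187 genes (11.2%) were called in limma (1391 higher, 1551 lower), against 38.9% with it. NAGK lost its call (0.367, limma adjusted p = 0.0635), as did NADSYN1, PFAS, PRKACB, SLC38A2 and STUB1. Calls fell to 6 of the first users of UDP-GlcNAc and UDP-GalNAc, 2 of the amidotransferases and 1 of the GFPT regulators, to be read beside the lower share of all genes. GNPNAT1 lost its call without the variance trend (0.245, limma adjusted p = 0.0592) and with the base composition correction, chosen after seeing the data (0.245, limma adjusted p = 0.0896). Median-of-ratios scaling called 3 return and salvage genes. With the split term, which was drawn from these same data, 6031 genes (52.6% of those tested) were called, AMDHD2 among them (0.249), and 4 of the sialic acid branch. The GFPT1 to GFPT2 ratio difference was 2.48 with a pseudocount of 0.1 and 4.389 with none.

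Leaving out 1 library at a time gave 2689 to 4636 calls (1185 to 2104 higher, 1504 to 2532 lower), the fewest without DON 2. These were 23.7% to 40.8% of the genes tested each time. The log2 fold change of GNPNAT1 ran from 0.201 to 0.268, with the call lost each time, and that of NAGK from 0.304 to 0.428. AMDHD2 ran from -0.167 (without vehicle 3) to 0.182 and was -0.142 without DON 1. UAP1L1 ran from -0.016 (without DON 1) to 0.19. Calls ran from 5 to 6 for the tested enzymes of the pathway and cycle and 2 to 4 for return and salvage. They ran from 6 to 13 for first users of UDP-GlcNAc and UDP-GalNAc, 3 to 5 for OGT partners, 2 to 5 for amidotransferases and 1 to 3 for GFPT regulators. Other named genes lost their call in 22 of 629 cases. The causes were not tested.

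The labels number replicates in both groups. Deviations of same-numbered libraries correlated at 0.254, -0.184 and 0.502, and vehicle 2 correlated best with DON 1 (0.389). Deviations from a group mean depend on each other, so these values cannot decide whether same-numbered libraries share a culture or batch. With a replicate block 5414 genes were called, against 4459 without it, and no enzyme gained or lost its call. Low values limit GFPT2 and other genes near the floor of 0.01 FPKM.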
